A study of Mus musculus with 16 samples.

Results

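The Reg family of secreted C-type lectins is described here in the terminal ileum of wild-type (*Tas1r3*+/+) and *Tas1r3*-/- mice. The members are *Reg1*, *Reg3a*, *Reg3b*, *Reg3g* and *Reg4*, taken as all rows of the deposited table whose transcript name belongs to one of these genes. They cover 5 of 23299 genes and 10 of 59258 transcripts, and all 5 passed the filter on low values. The family members *Reg2* and *Reg3d* were not analysed here. The rule used gene names and no values, although *Reg3g* was a known result of these mice.

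Reg lectins are small secreted proteins built around a C-type lectin fold. *Reg3g* encodes a lectin that kills Gram-positive bacteria by binding their peptidoglycan and helps to hold bacteria away from the small intestinal surface. *Reg3b* encodes a paralog that acts mainly on Gram-negative bacteria, and *Reg3a* is a further paralog of the same cluster. In the small intestine, enterocytes and Paneth cells make these proteins, and their transcription depends on microbial signals that pass through MyD88 and on IL-22, which acts through STAT3. *Reg4* is expressed by enteroendocrine and other secretory cells, and *Reg1* was first known as a pancreatic stone protein.

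Both strains of mice were C57BL/6, since the mutant allele had been backcrossed to that background, and the ages of single mice are not given in the labels. Tas1r3 is the shared subunit of the sweet and umami taste receptors. ND-fed mice received a normal diet and plain water for 10 weeks, and WD-fed mice a 60% high-fat diet and a 30% sucrose solution for the same time. The labels name 16 mice, with 2 males and 2 females in each of 4 groups. RNA from whole tissue was sequenced once per mouse, so fewer cells of a type and less RNA per cell cannot be told apart.

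The deposited values are RPKM per transcript, that is, reads divided by transcript length and by a library total. The columns of the ND-fed *Tas1r3*-/- females equal weighted means of the columns of the males of that group for all but 17 and 18 transcripts, with weights of 0.75 and 0.25 for female 1 and 1 other pair of weights for female 2. All 10 Reg transcripts were among the equal ones, so both columns were left out. In the WD-fed *Tas1r3*-/- group, the female 2 column behaved as a mean with female 1, since 99.8% of the values rebuilt on that basis had at most 6 significant digits against 68.1% in a control with male 1. The 2 columns were averaged into 1 female library. This left 4 ND-fed *Tas1r3*+/+, 2 ND-fed *Tas1r3*-/-, 4 WD-fed *Tas1r3*+/+ and 3 WD-fed *Tas1r3*-/- libraries, 13 in all, of 7003820 to 12384384 implied reads. *Tas1r3* itself lay between 1.56 and 6.53 scaled RPKM in the *Tas1r3*+/+ libraries and at most at 0.00512 in the *Tas1r3*-/- libraries. Ileal position markers such as *Fabp6* and *Slc10a2* were detected in all groups, with summed levels of 906 to 10661 scaled RPKM.

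Nearly all values were written with at most 6 significant digits, and 169 of 770354 (0.0219%), in 70 genes, carried more. Among the Reg transcripts, these were the values of Reg3g-201 and Reg3g-202 in WD-fed *Tas1r3*-/- male 1, which carried 8 digits each. The genes with such values included *Reg3g*, *Tas1r3*, *Nos2*, *Cldn7*, *Lyz1* and *Pparg*, which the study names, and many alpha-defensin genes. Whether these values came from the same quantification as the rest of the table was not tested. The main *Reg3g* results that use this library are therefore also given without it.

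*Reg3b*, *Reg3a*, *Reg1* and *Reg3g* lie together on chromosome 6 (GRCm38), and *Reg4* lies on chromosome 3. *Reg3b* spans 78370657 to 78373466 on the plus strand, *Reg3a* 78380709 to 78383827 on the plus strand, *Reg1* 78422711 to 78428667 on the plus strand and *Reg3g* 78466269 to 78468872 on the minus strand. *Reg4* spans 98222156 to 98236748 on the plus strand of chromosome 3. The main transcripts of *Reg3b* and *Reg3g* were 77.4% identical over 729 aligned bases, so the longest run of bases that the analysed transcripts of both genes share is shown to make clear how much sequence separates their reads. It has 35 bases, lies in the coding part of exon 2 of Reg3b-201 and of Reg3g-201, and is found at chr6:78371230-78371264 on the plus strand in *Reg3b* and at chr6:78468503-78468537 on the minus strand in *Reg3g*.
Shared run of Reg3b and Reg3g: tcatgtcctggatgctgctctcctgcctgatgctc
Between *Reg3a* and either of these genes, the longest shared run was 24 bases. Reads inside such runs cannot be assigned to 1 gene.

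The upstream sequences of *Reg3b* and *Reg3g* are shown because both genes were the most highly expressed of the family and varied together in most libraries. They run from -200 to -25 relative to the RefSeq transcript start (GRCm38.p6), at chr6:78370685-78370860 on the plus strand for *Reg3b* and at chr6:78468899-78469074 on the minus strand for *Reg3g*, each read 5′ to 3′. The *Reg3b* window ends before Reg3b-201, the main transcript, which starts at 78370861. It lies after the start of Reg3b-204 (78370657), a transcript with at most 0.484% of the *Reg3b* RPKM. Capitals mark the aligned run of at least 8 identical bases, of which there was 1, with 11 bases.
Reg3b upstream: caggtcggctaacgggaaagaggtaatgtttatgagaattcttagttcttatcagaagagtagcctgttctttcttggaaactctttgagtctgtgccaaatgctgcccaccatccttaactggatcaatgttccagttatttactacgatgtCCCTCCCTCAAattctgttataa
Reg3g upstream: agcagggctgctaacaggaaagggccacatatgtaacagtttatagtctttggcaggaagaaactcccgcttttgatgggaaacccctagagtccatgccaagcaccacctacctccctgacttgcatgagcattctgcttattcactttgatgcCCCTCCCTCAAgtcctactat
The 2 windows were 67.8% identical over 171 aligned bases. The STAT consensus TTCNNNGAA, searched on both strands, was found once in the *Reg3b* window, 129 bases before the start as TTCTTGGAA, and in none of the other 4 members' windows. Of 32851 windows of the same length and place, 4.86% held a match.

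*Reg3b* and *Reg3g* were among the most abundant transcripts of the ileum, ranking 12 and 19 among all genes by mean scaled RPKM, whereas *Reg4* ranked 414, *Reg3a* 2248 and *Reg1* 14991. Over the 13 libraries, the median level was 5659 scaled RPKM for *Reg3b*, 3862 for *Reg3g*, 180 for *Reg4*, 46.6 for *Reg3a* and 1.62 for *Reg1*. By these medians, *Reg3b* and *Reg3g* stood more than an order of magnitude above *Reg4*, although the ratio of *Reg3g* to *Reg4* was as low as 4.62 in 1 library. *Reg4* was above *Reg3a* in 13 of 13 libraries, and *Reg3a* above *Reg1* in 13 of 13. The *Reg1* values rest on 4 to 41 reads per library, and those of *Reg3a* on 100 to 828, so small differences in *Reg1* were not detectable at this depth.

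Is the *Reg3g* level different between genotypes under the WD? *Reg3g* was lowest in WD-fed *Tas1r3*+/+ mice and highest in WD-fed *Tas1r3*-/- mice. In WD-fed *Tas1r3*+/+ mice, *Reg3g* lay at 967 and 1111 scaled RPKM in males 1 and 2 and at 767 and 2469 in females 1 and 2. In WD-fed *Tas1r3*-/- mice, it lay at 6262 and 6248 in males 1 and 2 and at 11638 in the female library. Every *Tas1r3*-/- value was thus above every *Tas1r3*+/+ value, and the group means were 8049 ± 3107 (SD, n = 3) for *Tas1r3*-/- and 1328 ± 773 (SD, n = 4) for *Tas1r3*+/+ mice. The difference was 2.69 on the log2 scale (SE 0.58, 95% interval 1.43 to 3.94), that is, 6.44-fold.

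In limma's test over 19042 genes, *Reg3g* ranked 17 by p in this comparison (unadjusted p = 0.000499), but its Benjamini-Hochberg adjusted p was 0.53, so it did not pass the study's cut-offs of 0.01 for the adjusted p and 2 for the fold change. By that rule 0.0105% of all genes were called, and 2.56% had an unadjusted p under 0.05. The groups did not overlap in 2.85% of all genes. The two-sided exact permutation test gave p = 0.029, the smallest value that 3 against 4 libraries can give. The study had picked *Reg3g* for display from mice of this experiment, so its direction here is not independent evidence.

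Without male 1, the library with the 8-digit values, the difference in *Reg3g* was 2.89 (SE 0.68, unadjusted p = 0.00115, limma). The 2 other *Tas1r3*-/- libraries alone had a mean of 8943 ± 3811 scaled RPKM (SD, n = 2). Every *Tas1r3*-/- value already lay above every *Tas1r3*+/+ value, so leaving out that library could not make the groups overlap.

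**Figure D1:**
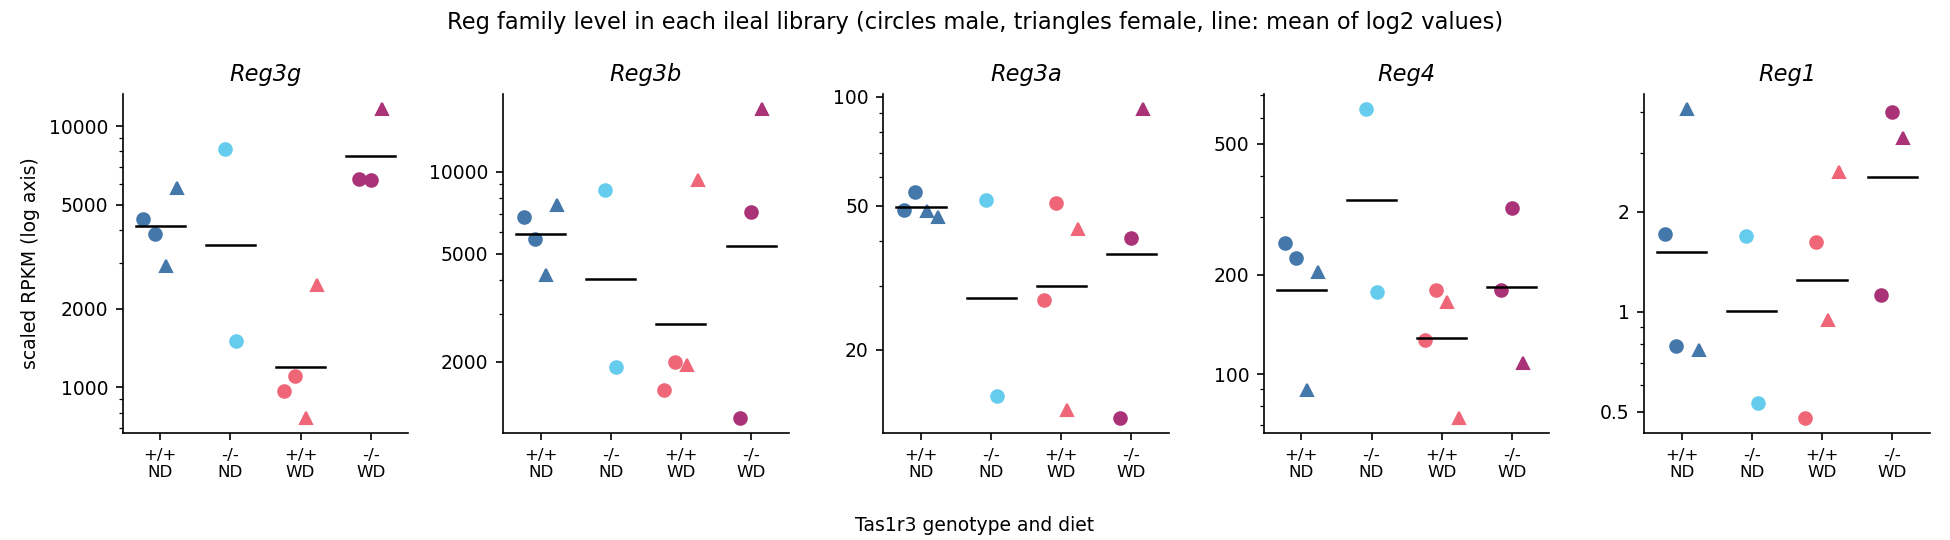
Scaled RPKM (log axis, a separate scale for each gene) of the 5 Reg genes in 13 ileal libraries, by *Tas1r3* genotype and diet. Circles are males, triangles females, and the line is the mean of the log2 values. *Reg3g* shows no overlap between the WD-fed genotypes (767 to 2469 against 6248 to 11638), whereas the other 4 genes overlap.

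The other 4 members gave no such separation under the WD. *Reg3b* lay at 1580, 1995, 1945 and 9299 scaled RPKM in the WD-fed *Tas1r3*+/+ libraries (males 1 and 2, females 1 and 2) and at 1250, 7118 and 16982 in the *Tas1r3*-/- libraries (males 1 and 2, female). The lowest and the highest of these 7 values both came from *Tas1r3*-/- mice. The log2 difference of *Reg3b* was 0.95 (SE 0.87, 95% interval -0.93 to 2.83, unadjusted p = 0.291).

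*Reg3a* lay at 27.4, 50.8, 13.6 and 43.1 scaled RPKM in the *Tas1r3*+/+ libraries and at 13, 40.8 and 92.5 in the *Tas1r3*-/- libraries, in the same order of mice. Its log2 difference was 0.29 (SE 0.61, 95% interval -1.03 to 1.60). As for *Reg3b*, male 1 was the lowest and the female library the highest of the *Tas1r3*-/- group. *Reg4* lay at 127, 180, 166 and 73.8 against 180, 319 and 108, a log2 difference of 0.51 (SE 0.52, 95% interval -0.61 to 1.63). *Reg1* lay at 0.48, 1.62, 0.945 and 2.64 against 1.12, 4 and 3.34, a log2 difference of 0.79 (SE 0.54, 95% interval -0.39 to 1.97). All 4 estimates were above 0, and none had an unadjusted p under 0.05. The interval of *Reg3b* still includes a difference as large as the 2.69 of *Reg3g*, so the data do not show that *Reg3b* was alike in both genotypes.

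**Figure D2:**
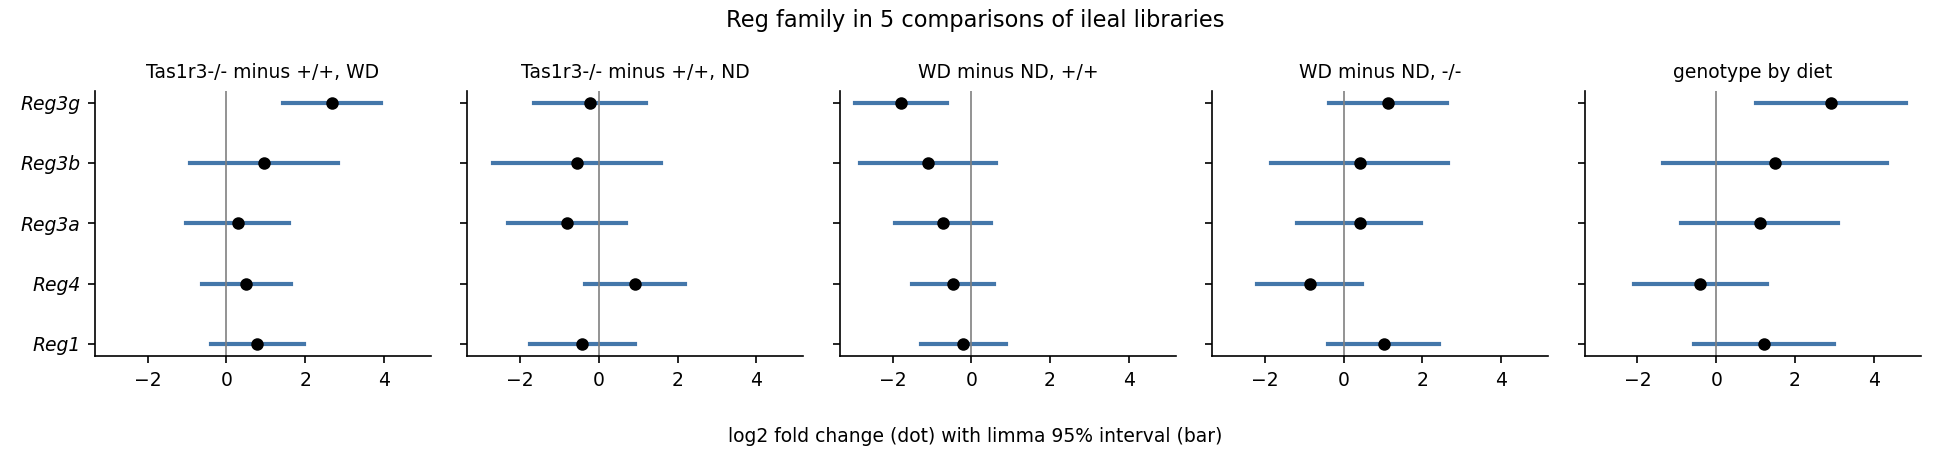
Log2 fold change (dot) with limma's 95% interval (bar) of the 5 Reg genes in the 2 genotype comparisons, the 2 diet comparisons and the genotype by diet term. The interval of *Reg3g* leaves out 0 between the genotypes on the WD (1.43 to 3.94), between the diets in *Tas1r3*+/+ mice (-2.95 to -0.63) and in the genotype by diet term (1.02 to 4.81), and all other intervals include 0.

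Whether *Reg3g* differed from its paralogs was tested on ratios within each library, which no scaling changes. The ratio of *Reg3g* to *Reg3b* RPKM was 0.612, 0.557, 0.394 and 0.265 in the WD-fed *Tas1r3*+/+ libraries and 5.01, 0.878 and 0.685 in the WD-fed *Tas1r3*-/- libraries. The 3 *Tas1r3*-/- ratios lay above the 4 *Tas1r3*+/+ ratios, by 1.73 on the log2 scale (exact permutation test, p = 0.029, adjusted p = 0.057 over the 4 ratios tested). The ratio of *Reg3g* to *Reg3a* also did not overlap between the genotypes, with a log2 difference of 2.40 (exact permutation test, p = 0.029, adjusted p = 0.057). For *Reg4* and *Reg1* the ratios overlapped (log2 differences of 2.18 and 1.63, exact permutation test, p = 0.086 each). These ratios were compared after the values had been seen.

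Male 1 of the WD-fed *Tas1r3*-/- group stood apart from the other 12 libraries in the balance of the paralogs. Its ratio of *Reg3g* to *Reg3b* was 5.01, against 0.265 to 0.958 in the others, or 5.23 times the next highest. Its ratio of *Reg3g* to *Reg3a* was 481, against 21.9 to 158. By contrast, its ratio of *Reg3b* to *Reg3a*, 96.0, lay within the 39.3 to 216 of the other libraries. *Reg3b* and *Reg3a* were thus both at their lowest of all 13 libraries in this mouse, while *Reg3g* was above its median. The *Reg3g* values of this library are those that carry 8 digits, whereas its *Reg3b* and *Reg3a* values carry at most 6.

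In the same library, the 10 enterocyte markers summed to 1215 scaled RPKM, the lowest of all libraries, against 3030 to 17766 in the others. The 6 ileal position markers summed to 906, also the lowest, and the 9 Paneth cell markers to 57907, the second highest. Smooth muscle markers summed to 5242, the highest of all libraries. Goblet cell (4798), enteroendocrine (130), colon (46.3) and proximal small intestine markers (28.4) had their lowest sums in this library. The part of these marker levels in the levels of the Reg genes was not tested. Of the genes in these lists, *Fabp1*, *Lyz1*, *Defa17*, *Defa21*, *Defa24*, *Defa26*, *Muc2* and *Gcg* carried values of more than 6 digits in at least 1 library.

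Without male 1, the differences of *Reg3b* and *Reg3a* were larger. The log2 difference of *Reg3b* on the WD became 2.05 (SE 0.80, unadjusted p = 0.0242, limma) and that of *Reg3a* 1.07 (SE 0.56, unadjusted p = 0.0812), both with an adjusted p of 1. *Reg1* had 1.29 (SE 0.57, unadjusted p = 0.0436, adjusted p = 1) and *Reg4* 0.58 (SE 0.60). The ratio of *Reg3g* to *Reg3b* then differed by 0.84 on the log2 scale (exact permutation test, p = 0.133, smallest possible 0.067). The ratio to *Reg3a*, which leaving out this library could not make overlap, differed by 1.80 (exact permutation test, p = 0.067). The differences were 2.31 for the ratio to *Reg4* and 1.21 for that to *Reg1* (exact permutation test, p = 0.200 each). Leaving out *Tas1r3*+/+ female 2, the mouse with the high *Reg3b*, gave 1.60 for *Reg3b* and 3.09 for *Reg3g*, and leaving out the *Tas1r3*-/- female library gave 0.16 for *Reg3b*, -0.33 for *Reg3a* and 2.43 for *Reg3g*.

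**Figure D3:**
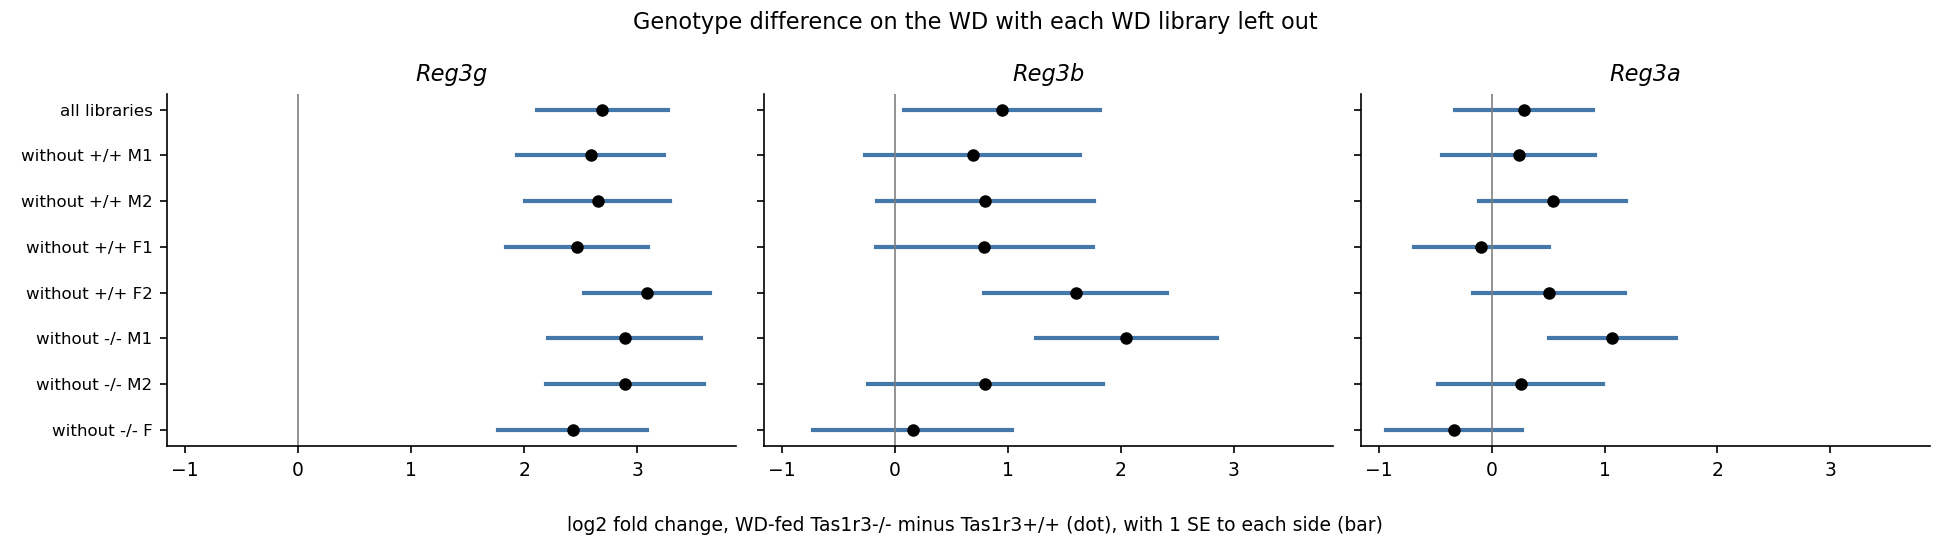
Log2 fold change between WD-fed *Tas1r3*-/- and *Tas1r3*+/+ mice (dot) with 1 SE to each side (bar) for *Reg3g*, *Reg3b* and *Reg3a*, in the fit of all libraries and with each WD-fed library left out. *Reg3g* stays between 2.43 and 3.09, *Reg3b* moves between 0.16 and 2.05, and *Reg3a* between -0.33 and 1.07.

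On the ND, the Reg genes did not separate the genotypes. *Reg3g* lay at 4406, 3862, 2928 and 5777 scaled RPKM in the *Tas1r3*+/+ libraries (males 1 and 2, females 1 and 2) and at 8188 and 1512 in males 1 and 2 of the *Tas1r3*-/- group. The 2 mutant males thus enclosed all 4 controls. *Reg3b* showed the same order, with 6822, 5659, 4179 and 7542 against 8543 and 1910. *Reg3a* was at 48.8, 54.4, 48.3 and 46.6 in the *Tas1r3*+/+ libraries, the narrowest spread of any member in any group, and at 51.8 and 14.9 in the *Tas1r3*-/- males.

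*Reg4* was highest of all 13 libraries in *Tas1r3*-/- male 1, at 637, and lay at 177 in male 2, against 250, 225, 89.7 and 204 in the controls. *Reg1* was at 1.72, 0.786, 4.08 and 0.766 against 1.69 and 0.532. The log2 differences were -0.23 (SE 0.65) for *Reg3g*, -0.55 (SE 0.98) for *Reg3b*, -0.82 (SE 0.69) for *Reg3a*, 0.91 (SE 0.58) for *Reg4* and -0.42 (SE 0.62) for *Reg1*. None of the 5 had an unadjusted p under 0.05, as 4.64% of all genes did, and none was called, as 0% of all genes were. The groups overlapped in all 5 members, whereas they did not in 22.3% of all genes. With 4 against 2 libraries, the smallest p of an exact permutation test is 0.067, so the design cannot reach 0.05. Both *Tas1r3*-/- libraries were from males, so genotype and sex are mixed in this comparison. With sex as a covariate, the log2 differences were -0.04 for *Reg3g*, -0.03 for *Reg3b*, -0.71 for *Reg3a*, 0.53 for *Reg4* and -0.16 for *Reg1*. The ratio of *Reg3g* to *Reg3b* was 0.958 and 0.792 in the *Tas1r3*-/- males and 0.646 to 0.766 in the controls, a log2 difference of 0.32 (exact permutation test, p = 0.067, adjusted p = 0.267 over the 4 ratios).

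Does the WD change the family in *Tas1r3*+/+ mice? *Reg3g* was lower in all 4 WD-fed mice (767 to 2469 scaled RPKM) than in all 4 ND-fed mice (2928 to 5777). The log2 difference was -1.79 (SE 0.53, 95% interval -2.95 to -0.63), so the fitted level on the WD was 3.45-fold lower. Its unadjusted p was 0.00558 and its adjusted p 0.159 (limma), and the exact permutation test gave p = 0.029. In this comparison 15.6% of all genes had an unadjusted p under 0.05, 10.6% did not overlap between the groups, and 0.00525% were called. The summed *Reg3g* includes Reg3g-202, a transcript with a retained intron. With only the highest transcript of each gene, Reg3g-201 here, the difference was -1.28 (SE 0.56, unadjusted p = 0.0387, adjusted p = 0.287, limma).

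*Reg3b* was lower in 3 of the 4 WD-fed mice, at 1580 to 1995, than in any ND-fed mouse (4179 to 7542), while WD-fed female 2, at 9299, was above them all. Its log2 difference was -1.10 (SE 0.80, unadjusted p = 0.193). The same difference was -0.71 (SE 0.56) for *Reg3a*, -0.47 (SE 0.48) for *Reg4* and -0.20 (SE 0.50) for *Reg1*. All 5 estimates were below 0, and only that of *Reg3g* had an unadjusted p under 0.05. The ratio of *Reg3g* to *Reg3b* was 0.646 to 0.766 in the ND-fed and 0.265 to 0.612 in the WD-fed *Tas1r3*+/+ mice, a log2 difference of -0.68 (exact permutation test, p = 0.029, adjusted p = 0.057 over the 4 ratios). The summed *Reg3g* here includes Reg3g-202, whose share was 37.5 to 60.3% in the ND-fed and 20.1 to 33.2% in the WD-fed mice. With only the highest transcript of each gene, the diet difference was -1.28 for *Reg3g* and -1.03 for *Reg3b*. The ratio of the coding transcripts alone was not tested.

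The diet comparisons depend on how the libraries are put on 1 scale. The columns of the ND-fed libraries summed to 817011 to 819916 and those of the WD-fed libraries to 542371 to 685274, so the library total behind the values may not be the same kind of number in both. With the values as deposited, the log2 difference of *Reg3g* in *Tas1r3*+/+ mice was -2.23 with an adjusted p of 0.00676 (limma), past the threshold, but 539 genes were then called (8 higher, 531 lower) and the median of all genes was at -0.38. Ratios between members within a library do not change with the scale. Whether the transcripts were quantified alike on both diets, which the ratios do depend on, was not tested.

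In *Tas1r3*-/- mice, the diets could not be told apart in any member. *Reg3g* lay at 8188 and 1512 on the ND and at 6262, 6248 and 11638 on the WD, a log2 difference of 1.13 (SE 0.69, unadjusted p = 0.127), or 1.32 (SE 0.78) without WD-fed male 1. The estimate was 0.40 (SE 1.04) for *Reg3b*, 0.40 (SE 0.73) for *Reg3a*, -0.87 (SE 0.62) for *Reg4* and 1.01 (SE 0.65) for *Reg1*. All 5 members overlapped between the diets, whereas 20.8% of all genes did not. No member had an unadjusted p under 0.05, against 5.51% of all genes, and 0% of all genes were called. The smallest p of an exact permutation test with 3 against 2 libraries is 0.10. Both ND-fed libraries were from males and the WD-fed group included a female library, so diet and sex are mixed here. With sex as a covariate, the log2 differences were 1.00 for *Reg3g*, 0.05 for *Reg3b*, 0.32 for *Reg3a*, -0.62 for *Reg4* and 0.84 for *Reg1*.

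The effect of the diet on *Reg3g* differed between the genotypes by 2.91 on the log2 scale (SE 0.87, 95% interval 1.02 to 4.81, unadjusted p = 0.0056, limma). Its adjusted p was 1, it ranked 34 of 19042 genes, and 1.37% of all genes had an unadjusted p under 0.05 in this test, with 0% called. Without ND-fed *Tas1r3*-/- male 2, the mouse with the lowest *Reg3g* of that group, the term was 1.70 (unadjusted p = 0.0649), and without male 1 of that group it was 4.18. Without WD-fed *Tas1r3*-/- male 1 it was 3.12 (SE 0.96, unadjusted p = 0.00701). The term was 1.5 (SE 1.31) for *Reg3b*, 1.10 (SE 0.92) for *Reg3a*, -0.40 (SE 0.78) for *Reg4* and 1.21 (SE 0.82) for *Reg1*. It shares its libraries with the 4 comparisons above.

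Over all libraries, *Reg3b* was the paralog with the highest correlation with *Reg3g*. Over the 13 libraries, Pearson's r of the log2 values was 0.69 (permutation p = 0.01, adjusted p = 0.04 over 4 paralogs) and Spearman's rho 0.54 (permutation p = 0.056, adjusted p = 0.18). For *Reg3a*, r was 0.51 (permutation p = 0.078) and rho 0.41 (permutation p = 0.17). For *Reg1*, r was 0.45 (permutation p = 0.12) and rho 0.43 (permutation p = 0.14), and for *Reg4*, r was 0.34 (permutation p = 0.26) and rho 0.40 (permutation p = 0.18). Adjusted over the 4 paralogs, the p of r was 0.16 for *Reg3a* and *Reg1* and 0.26 for *Reg4*, and that of rho 0.18 for each. The permutations ignored the groups, so these p-values do not separate differences between groups from those between mice.

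Leaving out the 2 libraries farthest from the median of *Reg3g* (WD-fed *Tas1r3*+/+ male 1 and female 1) gave r = 0.58 for *Reg3b*, 0.30 for *Reg3a*, 0.31 for *Reg4* and 0.26 for *Reg1*. With the group means subtracted, r was 0.78 for *Reg3b*, 0.69 for *Reg3a*, 0.19 for *Reg4* and 0.37 for *Reg1*. Within the 6 ND-fed libraries, r was 0.97 for *Reg3b*, 0.80 for *Reg3a*, 0.67 for *Reg4* and 0.19 for *Reg1*. Within the 7 WD-fed libraries the order differed, with 0.70 for *Reg1*, 0.60 for *Reg3b*, 0.39 for *Reg3a* and 0.09 for *Reg4*. In the 12 libraries other than WD-fed *Tas1r3*-/- male 1, r was 0.92 for *Reg3b* and 0.75 for *Reg3a*.

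**Figure D4:**
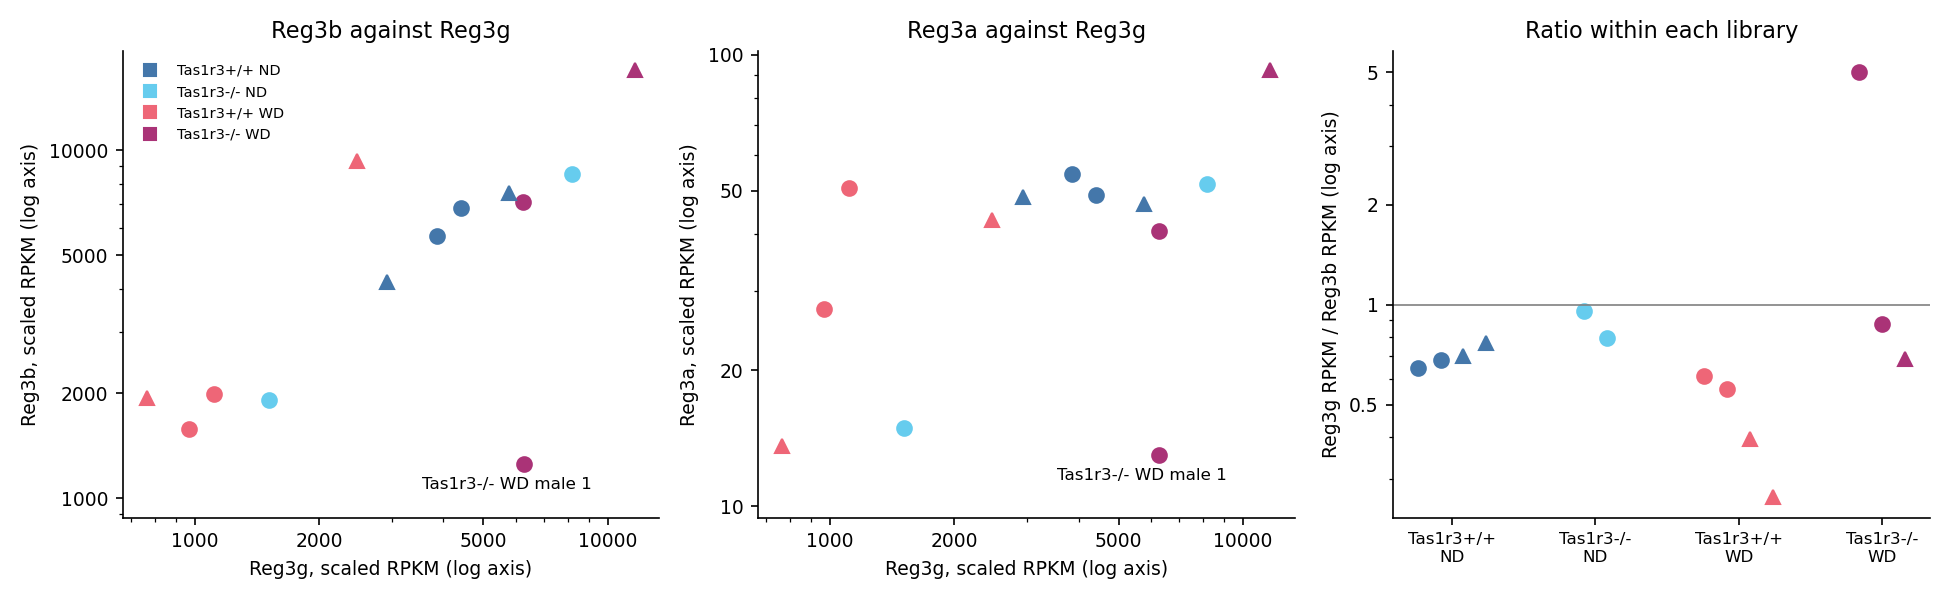
Left and middle, *Reg3b* and *Reg3a* against *Reg3g* (scaled RPKM, log axes) in 13 libraries, and right, the ratio of *Reg3g* to *Reg3b* RPKM in each library (log axis). Colours give the group, circles are males and triangles females. WD-fed *Tas1r3*-/- male 1, named in the plots, lies below the other libraries of its *Reg3g* level for both paralogs and has a ratio of 5.01, against 0.265 to 0.958 in the other 12. The *Reg3g* values of that library carry 8 digits.

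Among 10900 genes outside the Reg family with a mean RPKM of at least 5, those most like *Reg3g* over the 13 libraries were *Cldn7* (r = 0.926), *Dmbt1* (r = 0.854), *Muc2* (r = 0.850), *Golgb1* (r = 0.830) and *Muc3a* (r = 0.826). *Cldn7* encodes a claudin, *Dmbt1* a secreted scavenger receptor of mucosal surfaces, *Muc2* the main mucin of goblet cells, *Golgb1* a Golgi tether and *Muc3a* a membrane mucin. *Cldn7*, *Muc2* and *Muc3a* also carried values of more than 6 digits, in WD-fed *Tas1r3*-/- male 1 among others, and *Dmbt1* and *Golgb1* did not. Without that library, *Dmbt1* had r = 0.951 and *Golgb1* r = 0.870 with *Reg3g*.

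The genes most like *Reg3b* were *Aph1a* (r = 0.949), *Saa2* (r = 0.925), *Saa1* (r = 0.920), *Sprr2a3* (r = 0.912) and *Fam162a* (r = 0.912), none of which carried such values. *Saa1* and *Saa2* encode serum amyloid A proteins, which epithelial cells also make in response to microbes, and *Saa1* ranged from 28.6 to 3467 scaled RPKM. These likenesses are descriptions over 13 libraries that share groups.

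Upstream of the family, the IL-22 and IL-17 list (among them cytokines, their receptors, JAK kinases, *Stat3* and its target *Socs3*) had 12 of 17 genes tested. In the genotype comparison on the WD, 0 of the 12 had an unadjusted p under 0.05, and their median log2 difference was -0.17, against -0.03 for all genes. *Il22* itself was listed at 0 in 6 of 13 libraries and reached 4.10 scaled RPKM in 1 ND-fed *Tas1r3*+/+ library. *Stat3*, the factor downstream of IL-22, averaged 72.8 ± 19.8 (SD, n = 4) in the controls on the WD and 66.4 ± 15.1 (SD, n = 3) in the mutants. Its target *Socs3* averaged 17 ± 21.4 (SD, n = 4) and 35.2 ± 19.8 (SD, n = 3) in these groups. The log2 difference of *Socs3* was 1.46 (SE 1.03, unadjusted p = 0.182, limma). *Socs3* lay at 49.2 in control female 2, and at 12.7, 43.5 and 49.5 in the mutants (males 1 and 2, female).

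Between the diets in *Tas1r3*+/+ mice, 1 of the 12 was higher and 2 were lower by an unadjusted p under 0.05, where 15.6% of all genes passed it. *Socs3*, a STAT3 target that limits signalling, had a log2 difference of -2.54 (SE 0.95), from 123 ± 118 to 17.0 ± 21.4 scaled RPKM (SD, n = 4 each). On the ND it lay at 29.2 and 11.5 in the *Tas1r3*+/+ males but at 232 and 218 in the females. *Il17rc*, a receptor subunit, had -0.77 (SE 0.35), and *Il22ra2*, the soluble IL-22 inhibitor, had 1.03 (SE 0.36). *Socs3* was also the 1 gene of the list with an unadjusted p under 0.05 in the genotype by diet term (3.88, SE 1.56), and the ND-fed *Tas1r3*-/- libraries in that term, at 15.2 and 8.91, were both from males. No gene of the list had an unadjusted p under 0.05 between genotypes on the ND or between diets in *Tas1r3*-/- mice.

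Of 10 tested genes of microbial sensing (Toll-like receptors, NOD receptors and adaptors such as MyD88), 0 had an unadjusted p under 0.05 between genotypes on the WD, with a median of -0.10. *Myd88* averaged 13.6 ± 3.11 (SD, n = 4) in the controls on the WD and 14.7 ± 3.2 (SD, n = 3) in the mutants. On the ND, *Traf6* had a log2 difference of -0.67 (SE 0.31), and between diets in *Tas1r3*+/+ mice *Tlr4* had 0.54 (SE 0.24) and *Ticam1* -0.80 (SE 0.37). None of these had an adjusted p under 0.01.

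Among 18 tested epithelial defence genes other than the Reg family, 2 were higher and 1 was lower between genotypes on the WD by an unadjusted p under 0.05, with a median log2 difference of 0.90 against -0.03 for all genes. *Lyz1*, lysozyme of Paneth cells, had 1.88 (SE 0.53), *Pla2g2a*, a secreted phospholipase that acts on bacteria, 1.39 (SE 0.38), and *Nos2*, inducible nitric oxide synthase, -2.45 (SE 0.34). *Lyz1* and *Nos2* carried values of more than 6 digits and *Pla2g2a* did not. *Saa1*, at 180 ± 157 (SD, n = 4) against 1356 ± 1848 scaled RPKM (SD, n = 3), had a log2 difference of 1.55 with an unadjusted p of 0.286.

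Markers of the cell types that make Reg proteins were read beside these values. Of 9 Paneth cell markers, 6 were higher in WD-fed *Tas1r3*-/- mice by an unadjusted p under 0.05 (*Lyz1*, *Defa17*, *Defa21*, *Defa24*, *Defa26* and *Pla2g2a*), with a median log2 difference of 1.39, and their sum ran from 41726 to 57907 scaled RPKM against 13226 to 27594 in the controls. On the ND, 4 of the 9 were higher, with a median of 1.21 and sums of 37036 to 78932 against 13745 to 41656. Both of those *Tas1r3*-/- libraries were from males, and the *Tas1r3*+/+ sums were 41656 and 39838 in males but 14671 and 13745 in females, so genotype and sex are mixed in this comparison. Of the 9, 5 carried values of more than 6 digits. Of 10 enterocyte markers, 2 (*Fabp2* and *Apoa4*) were lower in WD-fed *Tas1r3*-/- mice, with a median of -0.93 and sums of 1215 to 15014 against 5641 to 17766. Of 8 goblet cell markers, *Muc2* was higher, with sums of 4798 to 13787 against 5147 to 17100.

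Enteroendocrine markers, the cells in which *Reg4* is expressed, gave 1 of 10 higher (*Cck*) and 1 lower (*Gcg*), with a median of -0.18. *Gcg* carried values of 8 digits in WD-fed *Tas1r3*+/+ females 1 and 2. Pancreatic acinar markers, the cells known for *Reg1*, summed to at most 32.2 scaled RPKM in any library, and 0 to 6 of the 8 in the table were at 0 in a library. Of 10 leukocyte markers, 1 (*Adgre1*) was lower in WD-fed *Tas1r3*-/- mice, with a median of -0.23 and sums of 313 to 409 against 190 to 337. *Lyz2* made up most of these sums, with means of 306 ± 57 (SD, n = 3) against 234 ± 64.3 (SD, n = 4). It was the 1 gene of this list with a value of more than 6 digits. Markers of smooth muscle (7 tested), colon (5 tested) and proximal small intestine (4 tested) gave 0 genes with an unadjusted p under 0.05 in that comparison, with medians of 0.33, 0.17 and 0.37. The part of any of these cell types in the levels of the Reg genes was not tested.

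Sex was examined as a source of spread within groups, in a model with group and sex. *Reg3b* was 1.05 higher in females on the log2 scale (SE 0.64, unadjusted p = 0.13, limma) and *Reg4* 0.75 lower (log2 difference -0.75, SE 0.36, unadjusted p = 0.0619). The estimates were 0.38 (SE 0.45) for *Reg3g*, 0.22 (SE 0.50) for *Reg3a* and 0.53 (SE 0.43) for *Reg1*. No member had an unadjusted p under 0.05, as 19.5% of all genes did. Within the 8 males alone, the genotype difference of *Reg3g* on the WD was 2.59 (SE 0.67, unadjusted p = 0.00538).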

How the data were processed

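Terminal ileum RNA (polyadenylated, ribosomal RNA depleted) was sequenced on an Ion Proton instrument and, per the labels and the study's methods, aligned with STAR in Partek Flow to mm10 and quantified on Ensembl transcripts. The deposited values are RPKM per transcript, normalized by the authors. The members and the gene lists were chosen with earlier results of these data known.

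Transcript values were summed per gene. Scaling between libraries used the TMM method (log ratios trimmed by 30%, levels by 5%), and 19042 genes that reached an RPKM of 1 in 2 or more of the 13 libraries were kept. limma 3.58.1 (R 4.3.3), with an intensity trend and 1 fit of all 4 groups, was run on log2(scaled RPKM + 0.5), a scale that understates the change of low genes such as *Reg1*. p-values were adjusted by Benjamini-Hochberg, and genes were called at an adjusted p under 0.01 with a fold change of at least 2. The study used DESeq2 with these thresholds, which needs counts and was not run here. Scaling factors ran from 0.6815 to 1.36. Single members were also compared by two-sided exact permutation tests on log2 values, and correlations by 100000 resamples (scipy 1.17.1). The labels call the samples separate mice.

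Depth was read from the smallest steps of the RPKM values, where 75.7% to 79.1% of values came out as whole reads within 0.02. Reads were estimated at transcript level, so these read numbers are approximate, and no count test was run. Of the transcripts, 98.2% matched the GENCODE annotation used for lengths and positions. Upstream sequences are from RefSeq, and all 5 members matched. Named genes were the 5 members, the 5 genes outside the family most like *Reg3g* and *Reg3b* (mean RPKM of at least 5), and list genes with an unadjusted p under 0.05 or needed to describe a role. The alternatives were other scalings, pseudocounts, filters, covariates, samples, transcripts and treatments of the related columns. The fitting step was tested on simulated data.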

Additional observations from a re-analysis of the deposited data

Results flagged for a closer look

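*Reg3b* in WD-fed *Tas1r3*+/+ mice was flagged because female 2 lay far above the other 3 libraries of its group. It stood at 9299 scaled RPKM against 1580, 1995 and 1945, and its gap to the nearest library was 0.869 of the whole range of the log2 values (Dixon's critical value for 4 libraries 0.829). Of 12 sets of 4 libraries examined (the 5 genes and the ratio of *Reg3g* to *Reg3b* in both *Tas1r3*+/+ groups), 1 was flagged, where chance flags about 1 in 20. The same library had the highest summed enterocyte markers of all, 17766 scaled RPKM, the highest ileal position markers, 10661, and the lowest smooth muscle markers, 1056. The part of these in its *Reg3b* level was not tested. Without it, the log2 difference of *Reg3b* between the genotypes on the WD was 1.60 (unadjusted p = 0.0735, limma) in place of 0.95.

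*Reg3g* was flagged because the effect of the diet differed between the genotypes, by 2.91 on the log2 scale (unadjusted p = 0.0056, limma, adjusted p = 1). The diet effect was -1.79 (SE 0.53) in *Tas1r3*+/+ and 1.13 (SE 0.69) in *Tas1r3*-/- mice. The second of these rests on 2 ND-fed libraries, both from males, that lay at 8188 and 1512 scaled RPKM.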

How the results depend on the processing

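Under every alternative run, *Reg3g* was higher in the *Tas1r3*-/- than in the control mice on the WD (22 alternatives, 2.43 to 3.09 on the log2 scale, adjusted p 0.0569 to 1, limma), lower on the WD in *Tas1r3*+/+ mice (23 alternatives, -2.23 to -1.28) and above 0 in the genotype by diet term (27 alternatives, 1.70 to 4.18). Leaving out 1 library at a time gave 2.43 to 3.09 between the genotypes on the WD, -2.17 to -1.57 between the diets in *Tas1r3*+/+ mice, -1.45 to 0.99 between the genotypes on the ND, -0.09 to 2.38 between the diets in *Tas1r3*-/- mice and 1.70 to 4.18 in the genotype by diet term. Between the genotypes on the WD and between the diets in *Tas1r3*+/+ mice, the *Reg3g* groups do not overlap. Leaving out 1 library could therefore not turn the sign in either. A library that is alone in its group was assumed to vary like the others. Without scaling, *Reg3g* passed the threshold between the diets in *Tas1r3*+/+ mice (-2.23, adjusted p = 0.00676). That setting called 539 genes against 1 and moved the median of all genes to -0.38 there, -0.35 between the diets in *Tas1r3*-/- mice, -0.14 between the genotypes on the ND and -0.12 on the WD. It called 4 genes against 2 between the genotypes on the WD.

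With a replicate block (sex and number of the mouse), *Reg3g* had 2.94 between the genotypes on the WD (adjusted p = 0.394, limma), 0.03 on the ND, -1.79 and 1.13 between the diets and 2.92 in the genotype by diet term, and no call changed. The block moved the count of called genes from 1 to 2 between the diets in *Tas1r3*+/+ mice. Deviations of same-numbered libraries correlated at -0.15 to 0.57. Between the genotypes on the WD, the values were 0.57 for males 1 and 0.42 for males 2. Between the diets in *Tas1r3*+/+ mice, they ran from -0.01 to 0.47. The labels do not pair the mice, so the block was kept as an alternative. Whether differently numbered libraries were less alike was not tested. The sign of the ND genotype difference of *Reg3g* turned from -0.23 to 0.03 with the block, 0.11 with all 16 columns, 0.09 with the highest transcript only and 0.99 without *Tas1r3*-/- male 2, without which the diet difference in *Tas1r3*-/- mice was -0.09.

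Other signs that turned were those of values that never passed the threshold, and the cause was not tested. *Reg3a* on the WD was -0.68 in males only, 1.07 without *Tas1r3*-/- male 1, -0.09 without *Tas1r3*+/+ female 1 and -0.33 without the *Tas1r3*-/- female library. On the ND without *Tas1r3*-/- male 2, *Reg1* was 0.12, *Reg3a* 0.07, *Reg3b* 0.53 and *Reg4* was 1.83. Without male 1 these were -0.97, -1.71, -1.63 and -0.02, and *Reg3b* was 0.03 with the block. Between the diets in *Tas1r3*+/+ mice, *Reg1* was 0.19 without ND-fed female 1, -0.50 without WD-fed female 2 and 0.08 without WD-fed male 1. Between the diets in *Tas1r3*-/- mice, *Reg3a* was -0.26 in males only, -0.49 without ND-fed male 2 and -0.24 without the female library, *Reg3b* was -0.44, -0.68 and -0.41 in that order, and without ND-fed male 1 the values were 1.31, 1.51 and, for *Reg4*, 0.08. The genotype by diet term of *Reg4* was 0.16 in males only, 0.57 and -1.32 without ND-fed *Tas1r3*-/- males 1 and 2 and 0.03 without the WD-fed female library. With all 16 columns, 6 genes were called between the genotypes on the WD, 35 and 15 between the diets and 1 on the ND. With only the 2 groups compared or males only, 0 genes were called between the genotypes on the WD (limma), against 304 and 1285 at an unadjusted p under 0.05. With sex as a covariate, 3 were called there and 4 between the diets in *Tas1r3*+/+ mice. Rebuilding the WD-fed *Tas1r3*-/- female 2 library, chosen after seeing the data, gave 2.55 for *Reg3g* between the genotypes on the WD and 2.78 in the genotype by diet term. Leaving out transcripts with values of more than 6 digits leaves no transcript of *Reg3g*, so that alternative gave no *Reg3g* value.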

Other observations

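Reg3g-202, a transcript of 2089 bases with a retained intron, was a large part of the summed *Reg3g* RPKM. Its share was 42.0, 37.5, 60.3 and 55.2% in ND-fed *Tas1r3*+/+ mice (males 1 and 2, females 1 and 2), whereas the ND-fed *Tas1r3*-/- males had 36.7 and 35.9%. In the WD-fed libraries it was 26.9, 27.4, 33.2 and 20.1% in *Tas1r3*+/+ and 30.5, 23.0 and 34.6% in *Tas1r3*-/- mice. All 6 ND-fed libraries thus lay above all 7 WD-fed libraries. This was seen after looking at the values and was not tested. The share of Reg3b-203, the transcript of *Reg3b* with a retained intron, overlapped between the diets, at 14.4 to 25.4% on the ND and 13.3 to 18.8% on the WD.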
